A study of Mus musculus with 4 samples.

Results

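Zinc handling in the mouse intestine was followed through 7 genes named by symbol: the metallothioneins Mt1 and Mt2, the zinc importers Slc39a4, Slc39a5 and Slc39a14, and the exporters Slc30a1 and Slc30a10. All 7 were found among 20791 genes that had at least 1 exon block, a stretch of merged exon in the table deposited with the reads on build mm9, and all 7 had reads in all 4 libraries. They were picked by name, with earlier results of these data known, and no measured value enters the rule.

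The study sequenced RNA of total small intestine and total colon tissue of C57BL/6 mice that were 9 to 10 weeks old, with 2 library protocols and 1 library for each tissue and protocol. In the cDNA fragmented small intestine and cDNA fragmented colon libraries, polyadenylated RNA was copied into full-length cDNA by the SMART method and the cDNA was then sheared, which loses the strand. The rRNA-depleted small intestine and rRNA-depleted colon libraries, named after their labels, were made with a whole transcriptome kit, which by the methods of the study fragments the RNA before it is copied and keeps the strand. The methods of the study name jejunum and distal colon. They describe polyadenylated RNA and longer and more numerous reads for the protocol that fragments RNA, whereas the labels say that ribosomal RNA was removed, so these libraries may not be the ones described there. The labels name no transgene or treatment. The study speaks of both tissues as taken from the same individuals, but the labels do not tie a library to a mouse.

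The libraries held 22484041 and 24798934 uniquely placed reads in cDNA fragmented small intestine and colon, and 2035386 and 3478387 in the rRNA-depleted small intestine and colon. A level is given as RPKM, the reads on the exon blocks of a gene per 1000 exon bases and per 1000000 uniquely placed reads. With 1 library per tissue and protocol there is no replicate check of any difference within a protocol. No test between tissues was made, and a fit of tissue with protocol as a block was not run. Intervals are 95% intervals of the read counts, exact Poisson for a level and exact conditional binomial for a ratio, and they cover counting error only. In whole tissue, fewer cells of a type and less RNA per cell cannot be told apart.

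Zinc enters the cytosol through transporters of the ZIP (Slc39) family and leaves it, to the outside or into vesicles, through transporters of the ZnT (Slc30) family. Metallothioneins are small cysteine-rich proteins that bind zinc in the cytosol. Their genes are classic targets of Mtf1, a transcription factor that is activated by zinc and binds short metal response elements, and Slc30a1 is another of its known targets. Dietary zinc is taken up chiefly in the small intestine, where Slc39a4 works at the luminal membrane of enterocytes.

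Mt1 and Mt2 lie next to each other on chromosome 8 of mm9, Mt2 at 96696518 to 96697467 and Mt1 at 96702989 to 96704225, both on the plus strand and 5521 bases apart. Each has 3 exon blocks, with 540 exon bases in Mt1 and 556 in Mt2. Because they are close copies, the second exon blocks are shown first, to let a reader see what told the reads apart. Both are 66 bases long and wholly coding, and they are 71.2% identical. Capitals mark the 19 bases that differ.
Mt1, chr8:96703723-96703788: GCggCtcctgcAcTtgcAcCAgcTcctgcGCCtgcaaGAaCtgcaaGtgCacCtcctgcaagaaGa
Mt2, chr8:96697027-96697092: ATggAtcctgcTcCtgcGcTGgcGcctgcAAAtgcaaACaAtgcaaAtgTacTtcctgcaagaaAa
Reads of this instrument are strings of colors, each color standing for a pair of neighbouring bases, and up to 3 color mismatches were allowed. Over all 438 possible 35-base windows of the Mt1 exon blocks, the nearest window of Mt2 differed by at least 8 colors, and those of Mt3 and Mt4 by at least 8 and 9. No window of Mt1 came within the 3 allowed mismatches of these 3 genes. The same held for the 454 windows of Mt2, where the nearest window of another metallothionein, in Mt4, differed by 6 colors.

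The bases before the start sites are shown next for both metallothioneins and both exporters, since each pair moved together between the tissues. The exporters did so in opposite directions in the protocols. The choice of genes to print thus rests on measured ratios, and Slc39a5 and Slc39a14, which also moved together, are not printed. The bases come from RefSeq with build GRCm38.p6, 250 bases on the strand of the gene up to its start. Capitals mark the core of the metal response element, searched as TGCACNC and TGCGCNC on both strands, with overlapping matches joined. The table held 5 of the 7 genes. Slc39a4 and Slc39a14 were not matched.
Mt1, chr8:94178839-94179088, plus strand: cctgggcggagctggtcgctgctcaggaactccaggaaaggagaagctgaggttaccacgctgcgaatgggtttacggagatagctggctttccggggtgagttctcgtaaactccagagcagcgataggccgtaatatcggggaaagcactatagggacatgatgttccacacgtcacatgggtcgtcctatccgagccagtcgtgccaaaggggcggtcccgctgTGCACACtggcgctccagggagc
Mt2, chr8:94172368-94172617, plus strand: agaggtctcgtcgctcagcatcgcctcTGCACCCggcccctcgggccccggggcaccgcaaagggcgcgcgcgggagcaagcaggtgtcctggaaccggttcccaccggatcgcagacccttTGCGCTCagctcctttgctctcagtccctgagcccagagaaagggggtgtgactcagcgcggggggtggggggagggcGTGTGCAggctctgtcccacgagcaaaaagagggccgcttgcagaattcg
Slc30a1, chr1:191906531-191906780, plus strand: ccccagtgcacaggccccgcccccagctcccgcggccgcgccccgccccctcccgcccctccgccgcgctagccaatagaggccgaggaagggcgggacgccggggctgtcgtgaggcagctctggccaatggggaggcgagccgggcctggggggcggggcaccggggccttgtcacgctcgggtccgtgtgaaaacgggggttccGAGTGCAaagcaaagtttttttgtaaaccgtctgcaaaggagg
Slc30a10, chr1:185454598-185454847, plus strand: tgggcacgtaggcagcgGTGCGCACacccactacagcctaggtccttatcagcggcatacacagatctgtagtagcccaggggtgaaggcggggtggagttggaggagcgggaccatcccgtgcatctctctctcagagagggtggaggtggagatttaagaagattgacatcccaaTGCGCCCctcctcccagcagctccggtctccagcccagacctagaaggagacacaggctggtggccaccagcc
The windows of Mt2 and Slc30a10 each held 3 matches, of which a pair overlap at the 5′ end of that of Slc30a10, and those of Mt1 and Slc30a1 each held 1. Slc39a5, which has 2 windows in the table, had 1 and 0. Of all 32851 windows of this length in the table, 1.26% held 3 or more matches and 21.4% held 1 or more. A match is a run of letters and is no evidence of binding.

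Few reads of either metallothionein lay in the leading part of its annotated first exon. The first exon block of each gene begins at the RefSeq start. In the cDNA fragmented libraries, of the reads whose midpoint fell in the first block of Mt1, 22 of 724 in small intestine and 51 of 1579 in colon lay in its first 150 bases, or 3.04% and 3.23%. In the rRNA-depleted libraries these were 0 of 17 and 0 of 67, which with an exact binomial interval allows up to 19.5% and 5.36%. For Mt2 the counts were 0 of 28, 1 of 78, 0 of 4 and 0 of 28 in the same order of libraries. Thinly covered starts were seen in other genes as well. Among genes whose first block had at least 250 bases and 20 reads, the median share of its reads in the first 150 bases was 7.14% over 1219 genes in cDNA fragmented small intestine, 8.70% over 1585 in colon, and 6.56% over 526 and 6.12% over 892 in the rRNA-depleted pair. Blocks differ in length, so the density of reads in these bases was also set against that of the whole block. The median of this relative density was 0.29 and 0.32 in cDNA fragmented small intestine and colon, against 0.051 and 0.054 for Mt1. At or below Mt1 were 354 and 425 of the genes in this pair, or 29.0% and 26.8%. For Mt2 these were 305 and 383, and the 305, like Mt2, had no read in these bases in small intestine. In the rRNA-depleted colon 26.2% of the genes had no read there, as had both metallothioneins. Blocks with as few as 20 reads were admitted, and these can lack leading reads by counting alone. The shares therefore do not rank Mt1, with 724 and 1579 reads, among well-covered blocks. By the methods of the study the cDNA fragmentation protocol also removes the ends of transcripts, and the part of this step was not tested. The 150 bases and the comparison with other genes were chosen after the reads had been seen, and reads that lie wholly within the block cannot have their midpoint in its first 17 bases. This stretch of each gene held 4 matches to the same core, printed with 4 bases on either side where the block has them and with mm9 coordinates.
Mt1, chr8:96702989-96703001: tcTGCACTCcgcc
Mt1, chr8:96703005-96703019: aaagTGCGCTCggct
Mt1, chr8:96703069-96703083: tgctGGGTGCAaacc
Mt1, chr8:96703083-96703097: ccttTGCGCCCggac
Mt2, chr8:96696518-96696532: ggtcGTGCGCAggcc
Mt2, chr8:96696572-96696586: gggcGTGTGCAggcg
Mt2, chr8:96696591-96696605: gggcGCGTGCAtggt
Mt2, chr8:96696625-96696639: ctttTGCGCTCgacc
Of 32851 stretches of 150 bases just before RefSeq starts, 0.107% held 4 or more matches. No such share was computed for stretches just after the start, where these matches lie. Since the levels of both genes are per annotated exon base, the first 150 bases are counted in their length.

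Metallothioneins and Slc39a4 had the 3 highest levels of the 7 genes in both cDNA fragmented libraries, and the exporters the lowest in that of small intestine. Mt1 had the highest RPKM of the 7 in every library and ranked between percentile 91.7 and percentile 98.6 of all genes present. Slc39a4 followed in both cDNA fragmented libraries, at percentile 89.6 and 95.1. In the rRNA-depleted small intestine the Poisson intervals of Mt1, Slc39a4, Slc39a5 and Slc39a14 overlapped, so their order there was not distinguishable. The lowest RPKM belonged to Slc30a1 in the cDNA fragmented small intestine and to Slc39a14 in the cDNA fragmented colon. It belonged to Slc30a1 in the rRNA-depleted small intestine, where the intervals of Slc30a1, Mt2 and Slc30a10 overlapped, and to Slc30a10 in the rRNA-depleted colon, where those of both exporters overlapped.

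**Figure D1:**
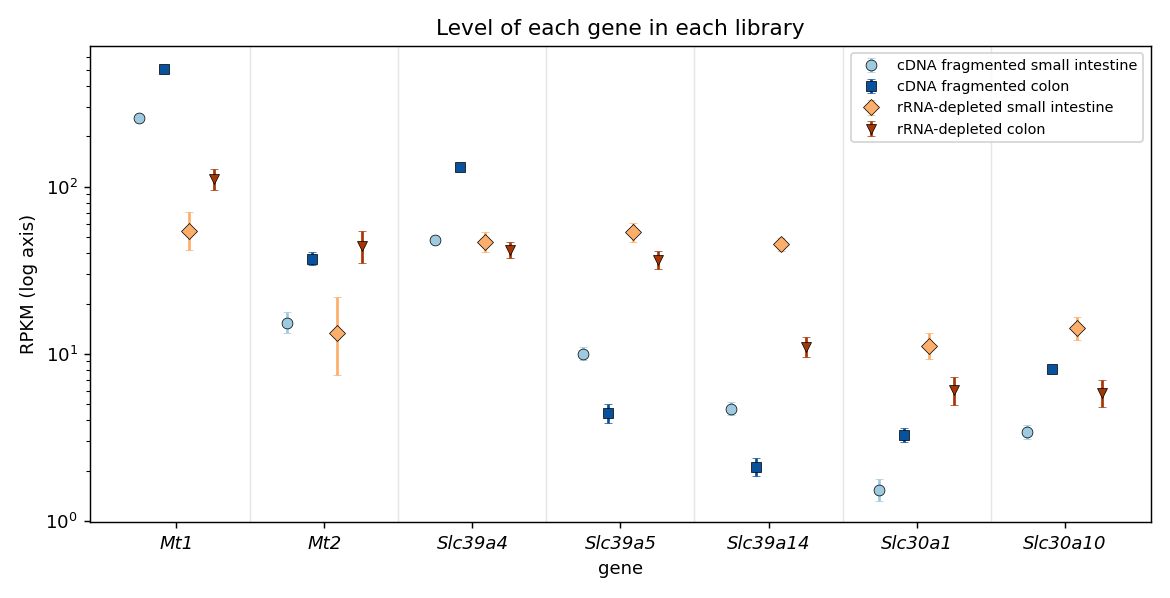
RPKM of each of the 7 genes (log axis) in each of the 4 libraries, with exact 95% Poisson intervals of the read counts as bars. Mt1 and Mt2 were higher in colon in both protocols, Slc39a5 and Slc39a14 higher in small intestine in both, and Slc30a1 and Slc30a10 changed sides between the protocols.

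Tissue differences of the 7 genes were moderate. The rule for calling a gene enhanced in a tissue was a ratio of at least 3 after a penalty of 1 RPKM was added to the lower tissue. Of the 7 genes, 0 passed in the cDNA fragmented libraries, where 3.2% of 16440 genes compared passed with colon higher and 2.73% with small intestine higher. In the rRNA-depleted libraries Mt2 passed with colon higher, where 6.61% of 15039 genes did, and Slc39a14 passed with small intestine higher, where 3.72% did. Mt2 no longer passed under the median of ratios, by start points or with the deeper library thinned to equal depth. At a ratio of 2 without penalty, among genes with at least 20 reads, 4 of the 7 were higher in colon and 2 in small intestine in the cDNA fragmented libraries, beside 25.8% and 9.55% of 14088 genes. The same counts in the rRNA-depleted libraries were 2 and 2, beside 27.6% and 12.2% of 11849 genes.

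The median of the log2 ratio, colon over small intestine, over genes with at least 20 reads was 0.40 in both protocols, and scaling by the median of ratios shifted all values by 0.40 in the cDNA fragmented and 0.34 in the rRNA-depleted libraries. After this scaling the log2 ratios of the 7 genes, in the cDNA fragmented and then the rRNA-depleted libraries, were 0.56 and 0.68 for Mt1, 0.87 and 1.39 for Mt2, 1.05 and -0.50 for Slc39a4, and -1.58 and -0.89 for Slc39a5. They were -1.56 and -2.38 for Slc39a14, 0.68 and -1.23 for Slc30a1, and 0.85 and -1.63 for Slc30a10. No gene of the 7 changed direction with the scaling.

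**Figure D2:**
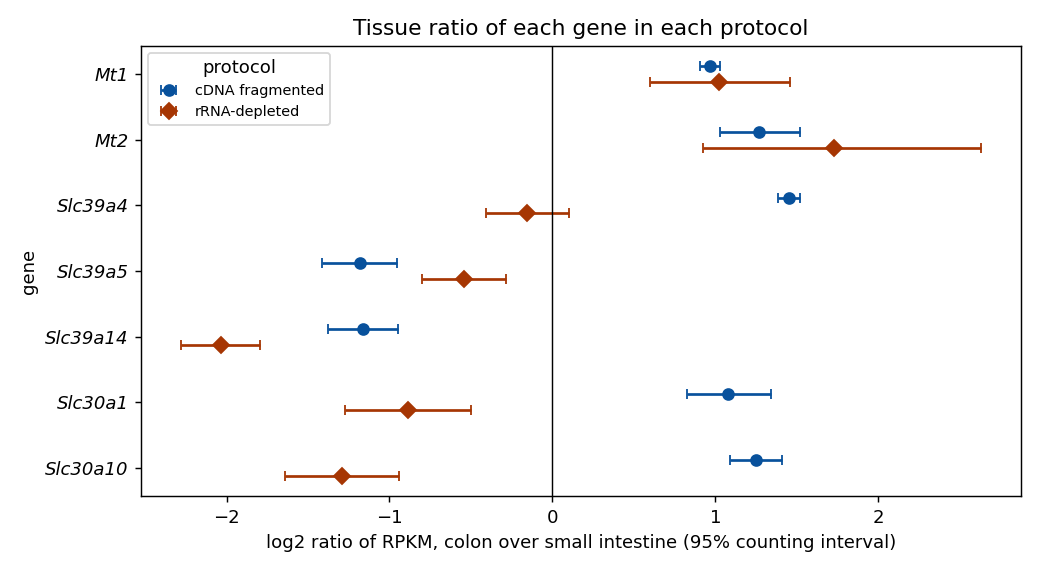
Log2 ratio of RPKM, colon over small intestine, for each of the 7 genes in the cDNA fragmented (circles) and rRNA-depleted (diamonds) libraries, with 95% counting intervals. Points right of 0 are higher in colon; Mt1 and Mt2 were right of 0 in both protocols and Slc39a5 and Slc39a14 left of 0 in both.

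Both metallothionein genes were higher in colon in both protocols. Mt1 was at 258 RPKM in the cDNA fragmented small intestine and 505 RPKM in the cDNA fragmented colon, from 3138 and 6757 reads. It was at 54.6 RPKM in the rRNA-depleted small intestine and 111 RPKM in the rRNA-depleted colon, from 60 and 208 reads. Scaled to all reads, the colon level was thus about double in either protocol, with a ratio of 1.95 (1.87 to 2.04) and of 2.03 (1.52 to 2.75). Under the median of ratios the excess was smaller, at log2 ratios of 0.56 and 0.68. Mt2 was at 15.4 RPKM and 37.1 RPKM in cDNA fragmented small intestine and colon, from 192 and 511 reads. It was at 13.3 RPKM and 44.0 RPKM in the rRNA-depleted small intestine and colon, from 15 and 85 reads. Its ratio was 2.41 (2.04 to 2.86) and 3.32 (1.90 to 6.18), and the lower bound of the rRNA-depleted value lies under the 3-fold rule that it passed. For neither gene did the ratios of the protocols differ beyond counting error.

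The 3 exon blocks of Mt1 each gave nearly the same ratio in the cDNA fragmented libraries, from 1.94 to 1.98. In the rRNA-depleted libraries 2 of 3 blocks were higher in colon with intervals above 1, and the second block had a ratio of 0.77 (0.41 to 1.48) on 19 and 25 reads. All 3 blocks of Mt2 were higher in colon in both protocols, between 2.27 and 3.57 in the cDNA fragmented and between 2.19 and 5.27 in the rRNA-depleted libraries. The blocks held only 4, 3 and 8 reads in the rRNA-depleted small intestine. In that pair the interval of the last block, 0.98 to 5.54, includes 1.

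Mt1 had many reads at each start position in the cDNA fragmented libraries. Its reads began at 562 distinct positions and strands in small intestine and at 604 in colon, with 5.58 and 11.2 reads per start. All genes together had 3.06 and 3.23 reads per start. Counted by starts, the log2 ratio of Mt1 was 0.04 in the cDNA fragmented and 0.19 in the rRNA-depleted libraries, against 0.97 and 1.02 by reads. On the last block of Mt1, with 224 bases and 2 strands, 2101 reads of the cDNA fragmented small intestine used 349 starts and 4494 reads of the colon used 353, so the starts there could not have risen as far as the reads did. In the rRNA-depleted libraries Mt1 had 41 starts in small intestine and 80 in colon, with 1.46 and 2.60 reads per start. All genes together had 2.60 reads per start in both of these libraries. The starts of Mt1 there were few beside its 540 exon bases, and its ratio by starts was still lower than that by reads. The reason was not tested. Mt2, with 1.33 and 1.85 reads per start in the cDNA fragmented libraries, had a log2 ratio of 0.87 by starts and 1.27 by reads.

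Slc39a4, the luminal zinc importer whose loss causes the inherited zinc deficiency acrodermatitis enteropathica, was higher in colon in the cDNA fragmented libraries, and its tissue ratio in the rRNA-depleted libraries was within counting error of 1 when scaled to all reads. Under the median of ratios the latter was on the small intestine side, at a log2 ratio of -0.50 (-0.75 to -0.24). The gene has 12 exon blocks with 2226 bases on the minus strand of chromosome 15, at 76442813 to 76447282. It was at 47.9 RPKM in the cDNA fragmented small intestine and 131 RPKM in the cDNA fragmented colon, from 2395 and 7225 reads. In the rRNA-depleted small intestine and colon it was at 46.6 RPKM and 41.8 RPKM, from 211 and 324 reads. The ratio of colon to small intestine was 2.74 (2.61 to 2.87) in the cDNA fragmented libraries and 0.90 (0.75 to 1.07) in the rRNA-depleted libraries. The 2 ratios differed by 3.04-fold (2.54 to 3.64). The difference ran through the whole gene in the cDNA fragmented libraries, where all 12 blocks were higher in colon with intervals above 1 and ratios from 2.03 to 3.90. Of 11 blocks with at least 20 reads in the rRNA-depleted libraries, 3 had a ratio above 1, and the ratios ran from 0.37 to 2.34. The interval lay wholly above 1 for 1 block and wholly below 1 for 1 block, the last one. That last block alone had a log2 ratio of -1.43 on 22 and 14 reads, against -0.15 for the gene. Counted by starts, the cDNA fragmented log2 ratio of 1.45 was 0.64.

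Slc39a5, an importer placed on the basolateral membrane of enterocytes, was higher in small intestine in both protocols. It has 12 exon blocks with 2141 bases on the minus strand of chromosome 10, at 127832990 to 127838280. It was at 10.0 RPKM and 4.43 RPKM in cDNA fragmented small intestine and colon, from 483 and 235 reads. The rRNA-depleted libraries held it at 53.2 RPKM in small intestine and 36.5 RPKM in colon, from 232 and 272 reads. The small intestine level was 2.27-fold (1.94 to 2.66) and 1.46-fold (1.22 to 1.74) that of colon. Of the 10 blocks with at least 20 reads in each protocol, 0 had a ratio above 1. The whole interval lay on the small intestine side for 9 of these blocks in the cDNA fragmented and 2 in the rRNA-depleted libraries.

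Slc39a14, an importer of zinc that also carries iron and manganese, was higher in small intestine in both protocols. It has 12 exon blocks with 5208 bases on the minus strand of chromosome 14, at 70703274 to 70751231. It was at 4.71 RPKM and 2.11 RPKM in cDNA fragmented small intestine and colon, from 551 and 272 reads. The rRNA-depleted libraries held it at 45.2 RPKM in small intestine and 11 RPKM in colon, from 479 and 200 reads. The small intestine level was 2.23-fold (1.93 to 2.59) that of colon in the cDNA fragmented and 4.09-fold (3.46 to 4.85) in the rRNA-depleted libraries.

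Most Slc39a14 reads lay on the last exon block, which has 3346 bases, 144 of them coding, or 64.2% of the exon bases. Its share of reads was 87.8% and 81.2% in cDNA fragmented small intestine and colon, and 75.6% and 83.0% in the rRNA-depleted ones. Without this block the log2 ratio of colon to small intestine kept its sign, at -0.54 in the cDNA fragmented and -2.56 in the rRNA-depleted libraries. The other blocks together were at only 1.60 and 1.10 RPKM in cDNA fragmented small intestine and colon. Of 3 blocks with at least 20 reads in that pair, 1 was higher in colon, at 1.15 (0.49 to 2.81), and 2 had intervals on the small intestine side. Of 4 such blocks in the rRNA-depleted libraries, 0 were higher in colon and 3 had intervals on the small intestine side. The gene has a pair of mutually exclusive exons of 170 bases each, at chr14:70715471-70715640 and chr14:70713408-70713577. The upstream and the downstream exon held 2 and 4 reads in the cDNA fragmented small intestine and 9 and 3 in the cDNA fragmented colon. They held 7 and 2 in the rRNA-depleted small intestine and 1 and 0 in the rRNA-depleted colon. The share of the upstream exon was 33.3% (4.33 to 77.7%), 75% (42.8 to 94.5%) and 77.8% (40.0 to 97.2%) in the first 3 of these libraries. Any difference in exon choice was not detectable at this depth.

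**Figure D3:**
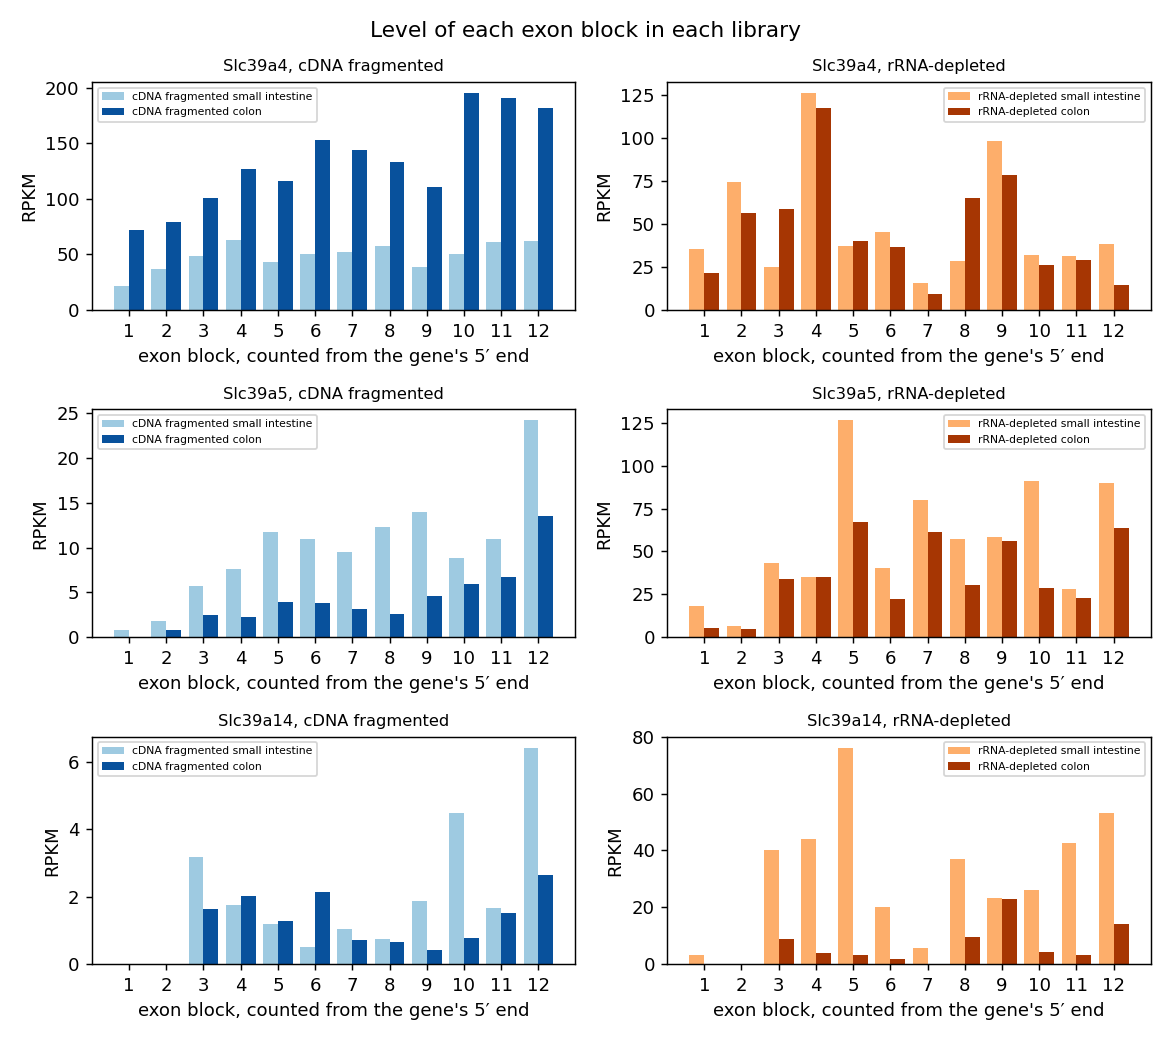
RPKM of each exon block of Slc39a4, Slc39a5 and Slc39a14, counted from the 5′ end of the gene, in the small intestine (light bars) and colon (dark bars) of each protocol, each panel with its own scale. All 12 blocks of Slc39a4 were higher in colon in the cDNA fragmented libraries, and 3 of the 11 with at least 20 reads were in the rRNA-depleted libraries.

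The exporters were higher in colon in the cDNA fragmented libraries and higher in small intestine in the rRNA-depleted libraries. Slc30a1, the plasma membrane exporter that moves zinc out of the cell, has 2 exon blocks with 5230 bases on the plus strand of chromosome 1, at 193730660 to 193737126. It was at 1.54 RPKM and 3.25 RPKM in cDNA fragmented small intestine and colon, from 181 and 422 reads. Levels of 11.2 RPKM and 6.05 RPKM were found in rRNA-depleted small intestine and colon, from 119 and 110 reads. Colon was 2.11-fold (1.77 to 2.53) higher in the first pair, and small intestine was 1.85-fold (1.41 to 2.42) higher in the second.

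Slc30a10, a member of the zinc exporter family best known for carrying manganese out of cells, has 4 exon blocks with 5835 bases on the plus strand of chromosome 1, at 187278727 to 187292640. It was at 3.41 RPKM and 8.12 RPKM in cDNA fragmented small intestine and colon, from 448 and 1175 reads. Levels of 14.2 RPKM and 5.81 RPKM were found in rRNA-depleted small intestine and colon, from 169 and 118 reads. Colon was 2.38-fold (2.13 to 2.66) higher in the first pair, and small intestine was 2.45-fold (1.92 to 3.12) higher in the second.

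Nearly all exporter reads came from the long last exon block, which is mostly not coding. That of Slc30a1 has 4397 bases, of which 902 are coding, and held 97.5% to 100% of the reads. Its first block, which overlaps the gene 1700034H15Rik, had 0 to 3 reads per library. The last block of Slc30a10 has 4685 bases, of which 476 are coding, and held 92.4% to 96.6% of the reads. The rest of Slc30a10 had log2 ratios of 0.98 in the cDNA fragmented and -1.94 in the rRNA-depleted libraries, the direction of the whole gene in each, with 9 and 4 reads behind the second value. The first exon block of Slc30a10 overlaps the gene Gm2061 and had 0 to 5 reads per library.

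The tissue ratios of both exporters and of the 3 importers differed between the protocols by more than counting error. The log2 ratio of colon to small intestine in the rRNA-depleted libraries minus that in the cDNA fragmented libraries was -1.97 for Slc30a1, a 3.91-fold difference (2.86 to 5.34), and -2.54 for Slc30a10, a 5.82-fold difference (4.49 to 7.54). It was -1.61 (-1.86 to -1.35) for Slc39a4, -0.87 (-1.19 to -0.56) for Slc39a14 and 0.64 (0.30 to 0.98) for Slc39a5, which all lie off 0 as well. It was 0.06 for Mt1 (-0.36 to 0.47) and 0.46 for Mt2 (-0.37 to 1.29), where the intervals include 0. Among 7385 genes with at least 100 reads in both pairs, the absolute difference had a median of 0.62 and a 90th percentile of 1.53, and 29.7% of genes had opposite directions in the protocols. Slc30a10 was at percentile 98.3 of this difference, Slc30a1 at 95.6, Slc39a4 at 91.5, Slc39a14 at 66.1, Slc39a5 at 51.5, Mt2 at 38.5 and Mt1 at 5.12.

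**Figure D4:**
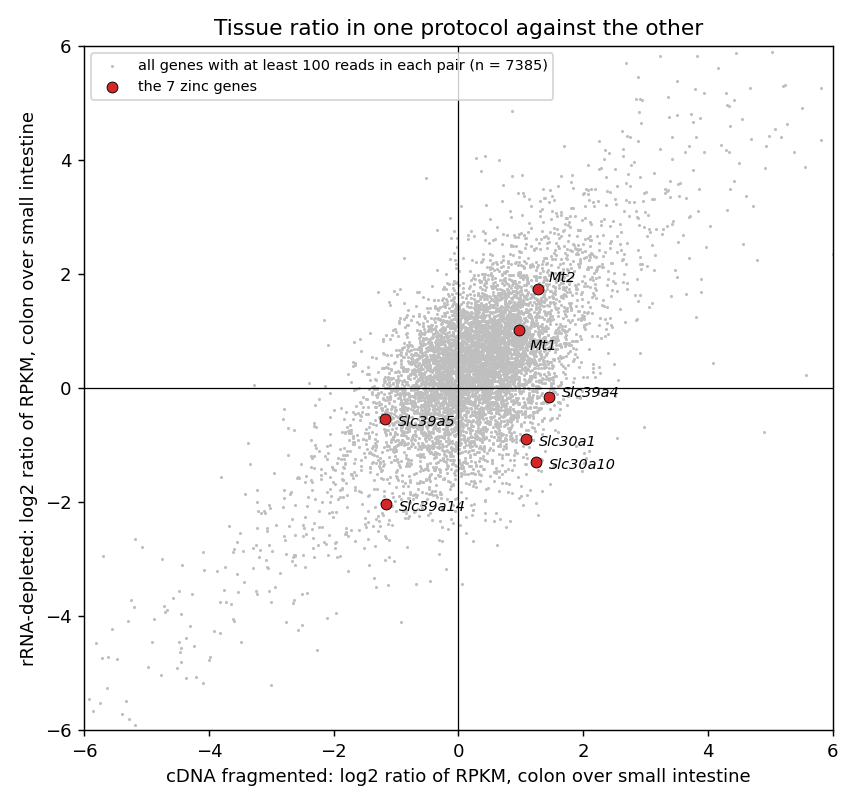
Log2 ratio of RPKM, colon over small intestine, in the cDNA fragmented libraries (x axis) against the rRNA-depleted libraries (y axis) for 7385 genes with at least 100 reads in each pair (grey, 97 of them outside the axes) and the 7 zinc genes (red). Slc30a1, Slc30a10 and Slc39a4 lie below 0 on the y axis and right of 0 on the x axis, higher in colon in the cDNA fragmented libraries only.

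Most markers of pancreatic acinar cells changed sides between the protocols in the same direction as the exporters. The summed RPKM of 22 such genes was 475 and 2426 in cDNA fragmented small intestine and colon, and 4399 and 529 in the rRNA-depleted small intestine and colon. Of the 22 genes 12, 20, 20 and 16 had reads in these libraries, and Amy2a5 and Prss1 were at 0 in all 4. A colon excess in the cDNA fragmented pair with a small intestine excess in the rRNA-depleted pair was seen in 17 of the 22. Clps and Pnliprp2 were higher in small intestine in both pairs, and Sycn, at 1.12 and 947 RPKM and at 48.5 and 210 RPKM, was higher in colon in both. The levels of Slc30a1, Slc30a10 and Slc39a4 were higher on the acinar side of each pair, for Slc39a4 within counting error in the second. The part of these cells in the tissue ratios was not tested.

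The labelled tissues had their own markers. The summed RPKM of 7 small intestinal enterocyte genes was 41941 and 4526 in cDNA fragmented small intestine and colon, and 10330 and 567 in the rRNA-depleted ones. That of 7 colonocyte genes was 392 and 58630, and 110 and 7490, with Car1, Scnn1b and Atp12a at 0 in the cDNA fragmented small intestine and Scnn1b and Scnn1g at 0 in the rRNA-depleted small intestine. Leukocyte genes, 7 of 7 with reads in each library, summed to 5190 and 512, and 1939 and 682. General epithelial genes, 7 of 7, summed to 9239 and 4012, and 3466 and 3752. Of these, 4 of 7 were higher in colon in the cDNA fragmented pair, where Krt20, at 7525 and 2503 RPKM, made up most of both sums. In the rRNA-depleted pair 5 of 7 were higher in small intestine, where Krt8, at 1127 and 2485 RPKM, was the largest term. Cdh1 and Cdx2 changed sides in the direction of the exporters. Smooth muscle genes, 8 of 8, summed to 308 and 1281, and 250 and 2445, and goblet cell genes, 5 of 6 found, to 11349 and 28629, and 4311 and 9877. Genes of enteric neurons and glia, 7 or 8 of 8 with reads, summed to 14.9 and 33.6, and 9.33 and 35, and adipocyte genes, 5 of 5, to 93.7 and 267, and 31.1 and 79.5. Mt1 and Mt2 thus moved with the colonocyte, muscle, goblet cell, neuronal and adipocyte sums, and Slc39a5 and Slc39a14 with the enterocyte, leukocyte and Paneth cell sums, the last given with Slc30a2. The goblet cell, adipocyte and Paneth cell lists each had 1 gene on the other side in 1 pair. These were Fcgbp, at 697 and 429 RPKM in the rRNA-depleted pair, and Cidec, at 31.9 and 27.4 RPKM in the cDNA fragmented pair. The Paneth cell gene was Ang4, at 238 and 291 RPKM in the rRNA-depleted pair. The goblet cell gene Zg16 was nearly equal there, at 1974 and 1980 RPKM. In the rRNA-depleted pair, where Slc39a14 had its larger excess, the acinar sum was on the small intestine side as well, and in the cDNA fragmented pair it was on the colon side. Of the leukocyte genes, 7 of 7 were higher in small intestine in the cDNA fragmented pair but 4 of 7 in the rRNA-depleted pair, where Cd74, at 1556 and 292 RPKM, made up most of the small intestine sum. The part of cell composition in these ratios was not tested.

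In the rRNA-depleted libraries 97.0% to 100% of the reads of the 7 genes lay on the strand of the gene, where all genes together had 98.5% in both. Antisense reads therefore numbered at most 8 for any of the 7 genes, in Slc39a4 of the colon. All of them lay on the first exon block of that gene, where 8 of 21 reads were antisense. The same block had 4 antisense reads of 20 in small intestine, again all those of the gene. In the cDNA fragmented libraries, which do not keep strand, the share on the strand of the gene was 45.3% to 57.0% for 6 of the genes. That of Mt2 was 38.0% in small intestine and 39.1% in colon, where all genes together had 48.3% and 48.2%. The share varied along both metallothionein genes, and not alike. On the last block it was 39.1% and 30.6% in small intestine and colon for Mt1, and 29.7% and 28.4% for Mt2. On the first block it was 76.0% and 80.6% for Mt1, and 78.6% and 89.7% for Mt2. On the middle block it was 79.2% and 78.5% for Mt1 but 43.8% and 39.7% for Mt2, the latter on 16 and 63 reads.

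The rest of the ZIP family contributed 10 further genes to the cDNA fragmented comparison and 9 to the rRNA-depleted one. Of the whole family 0 of 13 passed the 3-fold rule in the cDNA fragmented libraries, while 2 of 12 passed with colon higher and 1, Slc39a14, with small intestine higher in the rRNA-depleted libraries. The shares over all genes compared were 3.2% with colon higher and 2.73% with small intestine higher in the first pair, and 6.61% and 3.72% in the second. The median log2 ratio of the family was 0.75 and 0.32, beside 0.40 over all genes in each protocol. Slc39a8, an importer of zinc, cadmium and manganese, was at 3.71 and 6.74 RPKM in cDNA fragmented small intestine and colon, and at 2.12 and 27.9 RPKM in the rRNA-depleted ones. Its ratio of colon to small intestine was 1.82 (1.58 to 2.09) and 13.1 (7.97 to 23.2). Slc39a11 was at 4.51 and 8.59 RPKM in the first pair and at 22.9 and 73.5 RPKM in the second, with ratios of 1.90 (1.65 to 2.21) and 3.20 (2.65 to 3.90).

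Slc39a1 is a widely expressed plasma membrane importer. Among the ZIP genes outside the 7 it had the highest RPKM in both rRNA-depleted libraries, and Slc39a9 had the highest in both cDNA fragmented libraries. It was at 17.2 and 18.2 RPKM in cDNA fragmented small intestine and colon, and at 70.4 and 125 RPKM in the rRNA-depleted ones, with ratios of 1.06 (0.97 to 1.16) and 1.77 (1.57 to 2.01). Slc39a9, of which 1 exon block is shared with another coding gene, was at 52.5 and 38.9 RPKM in the first pair and at 55.5 and 69.4 RPKM in the second. In the cDNA fragmented libraries its colon level was thus 0.74 (0.71 to 0.77) of that in small intestine, and in the rRNA-depleted libraries 1.25 (1.13 to 1.38).

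Slc30a2, which loads zinc into vesicles of secretory cells, was the ZnT gene that separated the tissues in both protocols. It was at 29.1 RPKM in the cDNA fragmented small intestine, from 962 reads, and had 0 reads in the colon. Taken against a floor of 3 reads per library, which is 0.0823 RPKM, small intestine was at least 354-fold higher. In the rRNA-depleted small intestine it was at 42.1 RPKM, from 126 reads, and in the colon at 0.39 RPKM, from 2 reads. The small intestine excess there was 108-fold, with a ratio of colon to small intestine of 0.0093 (0.0011 to 0.034). Markers of Paneth cells, 6 of 6 with reads in every library, summed to 23479 and 529 RPKM in cDNA fragmented small intestine and colon and to 3522 and 357 RPKM in the rRNA-depleted ones, and their part was not tested. The acinar sum was on the same side as Slc30a2 in the rRNA-depleted pair, at 4399 and 529, and on the other side in the cDNA fragmented pair, at 475 and 2426, and its part was not tested. Of the ZnT family 1 of 8 genes compared in the cDNA fragmented libraries and 1 of 9 in the rRNA-depleted libraries passed the 3-fold rule, in both Slc30a2 with small intestine higher, beside 2.73% and 3.72% of all genes compared. The median log2 ratio of the family was 0.05 and -0.16, beside 0.40 over all genes in each protocol. These medians cover genes with at least 20 reads in the pair and reads in both tissues. Slc30a2, with 0 colon reads in the cDNA fragmented pair, is thus left out of the first median and enters the second. Placing it at the small intestine end would lower the first median.

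Among the other metallothioneins, Mt3 was at 0.58 and 15.6 RPKM in cDNA fragmented small intestine and colon, from 7 and 208 reads. Its colon level was 26.9-fold (12.8 to 67.8) higher. In the rRNA-depleted libraries it had 0 and 4 reads. Mt4, named as the remaining member of the family, had 1 and 18 reads in the first pair and 0 and 1 in the second. Of the 4 metallothioneins, 1 of 4 compared passed with colon higher in the cDNA fragmented libraries, which was Mt3, and 1 of 3 in the rRNA-depleted libraries, which was Mt2, whose call was lost under the 3 alternatives named above. Of all genes compared, 3.2% and 6.61% passed in this direction. Mtf1, the zinc-sensing factor itself, was at 7.82 and 4.57 RPKM in the first pair and at 8.20 and 7.45 RPKM in the second. Its ratio of colon to small intestine was 0.58 (0.54 to 0.64) and 0.91 (0.73 to 1.14). Mtf1 was thus lower in colon in the cDNA fragmented libraries, and the interval in the rRNA-depleted libraries includes 1.

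**Figure D5:**
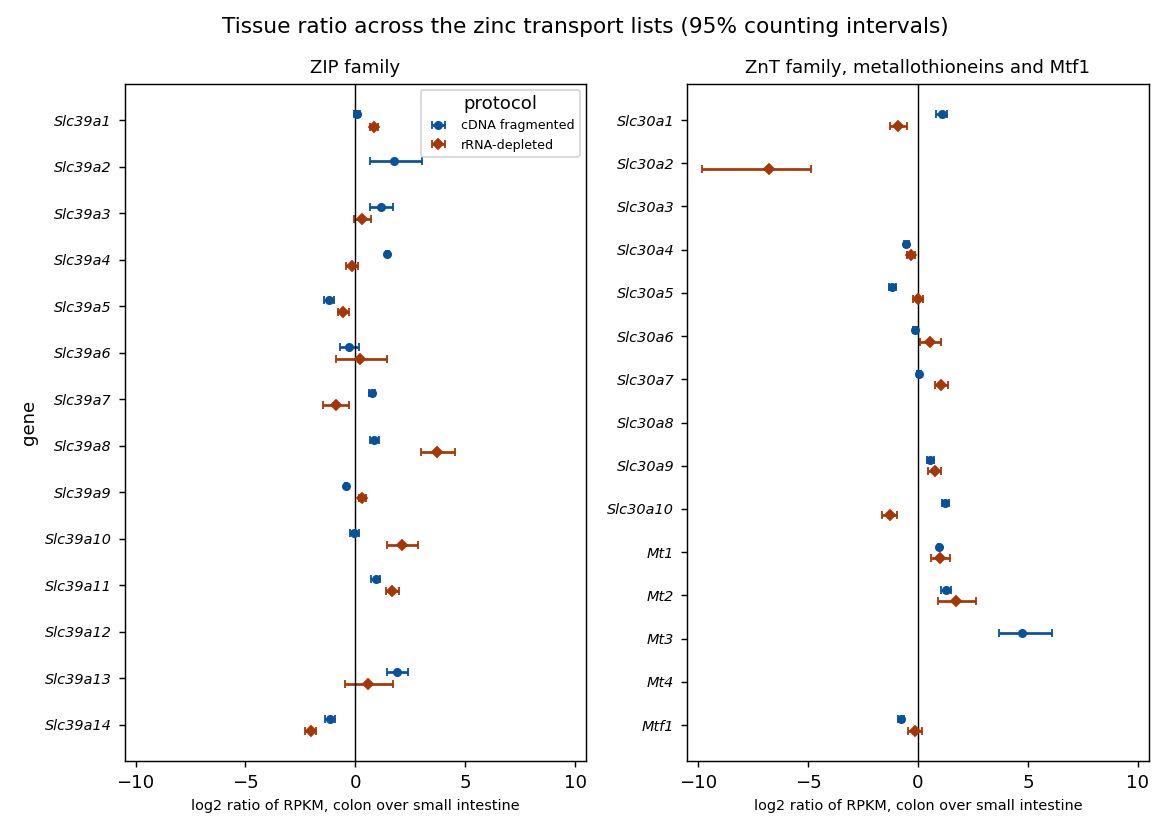
Log2 ratio of RPKM, colon over small intestine, for the ZIP family (left) and the ZnT family, metallothioneins and Mtf1 (right) in each protocol, with 95% counting intervals, for genes with at least 20 reads in a pair and reads in both tissues. Slc30a2 of the cDNA fragmented libraries, with 0 colon reads, is not drawn, and Slc39a8 and Mt3 lie far on the colon side in 1 protocol each.

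The genes most like each of the 7 were sought by the Euclidean distance of log2(RPKM + 1), centred over the 4 libraries, among 8223 other genes with at least 20 reads in every library. For Mt2, which had 15 reads in the rRNA-depleted small intestine, 13916 genes with at least 20 reads in at least 1 library were searched. For Slc39a4 these were 2310003C23Rik at a distance of 0.11 and Nosip at 0.11, for Slc39a5 Mob1b at 0.16 and Arhgap5 at 0.19, and for Slc39a14 Lrrc16a at 0.10 and Hsd17b11 at 0.23. For Slc30a1 they were Ubap2 at 0.074 and Ankrd11 at 0.13, and for Slc30a10 Dhx16 at 0.12 and Ankrd9 at 0.16. For Mt1 they were Use1 at 0.061 and Rps16 at 0.14, and for Mt2 G6pc3 at 0.067 and Rgs16 at 0.11. Rgs16 was at 0.11 and 1.85 RPKM in cDNA fragmented small intestine and colon, and at 0 and 2.34 RPKM in the rRNA-depleted ones. At such low levels the added 1 RPKM compresses the ratios, so the small distance does not mean that Rgs16 shared the tissue ratios of Mt2. With 4 libraries the likeness is a description of these libraries only.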

How the data were processed

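Total tissue of small intestine (jejunum, by the methods of the study) and colon (distal colon) was sequenced by the SOLiD method, 1 library per tissue and protocol. The authors matched 35-color reads to RefSeq exons of mm9 with up to 3 color mismatches and deposited the match positions of every read, with tables that place each exon block and junction in the genome. These deposited positions are not counts, and reads per gene were counted here. A read with 1 match was assigned to the exon block that holds its midpoint, and blocks were assigned to genes of GENCODE M1 (mm9) by exonic overlap. Junction reads were used only as an alternative. RPKM was computed per 1000000 uniquely placed reads. Presence needed over 0.01 RPKM and 2 start points, a start point being a distinct position and strand. Genes present in at least 1 tissue of a pair were compared by the 3-fold rule, and no test was run with 1 library per tissue and protocol.

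Of all reads, 29.0%, 29.8%, 5.59% and 9.28% were uniquely placed in cDNA fragmented small intestine and colon and rRNA-depleted small intestine and colon. The genes and lists were chosen with earlier results of these data known. Other genes were named if they were in the zinc transport lists and passed the 3-fold rule in a protocol or had 1 of the 3 highest RPKM over all lists, with Mtf1 and, outside this rule and after its values were seen, Mt4, and the 2 nearest genes by pattern were named for each of the 7. Alternatives were the median of ratios, 1 color mismatch, start points, a penalty of 0.1 RPKM, thinning to equal depth, added junction reads, 1 strand, a 2-fold threshold and a minimum of 20 reads. The 3′ block alone, the gene without it, and the unpenalised 2-fold ratio were added after seeing the data. The counting rule was tested on simulated data. Python 3.11.15, numpy 2.4.6, pandas 2.3.3 and scipy 1.17.1 were used.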

Additional observations from a re-analysis of the deposited data

Results flagged for a closer look

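Slc30a1 and Slc30a10 had opposite tissue ratios in the protocols: both were higher in colon in the cDNA fragmented libraries and higher in small intestine in the rRNA-depleted libraries. The log2 ratio of colon to small intestine in the rRNA-depleted libraries minus that in the cDNA fragmented libraries was -1.97 for Slc30a1 and -2.54 for Slc30a10. With 1 library per tissue and protocol the difference between protocols was not tested against replicate error.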

How the results depend on the processing

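The log2 tissue ratios of the 7 genes kept their direction in 111 of 111 values under the alternatives that could move them. Another penalty, threshold or read minimum cannot, and by start points Mt1 of the cDNA fragmented libraries had little room to move. The other alternatives recount the same reads, so the tally is no independent check of direction. It includes values near 0, such as Mt1 by start points, at 0.04 and 0.19, and Slc39a4 of the rRNA-depleted libraries without the 3′ block, at -0.06. For Slc30a1 without its last block, the rRNA-depleted value rests on 3 and 1 reads. For Slc39a4 in the rRNA-depleted libraries the interval lay off 0 under the median of ratios, at -0.50 (-0.75 to -0.24). Counts by the 3-fold rule moved more. With the median of ratios, all genes higher in colon numbered 346 in the cDNA fragmented and 640 in the rRNA-depleted libraries, against 526 and 994, and those higher in small intestine 585 and 756, against 449 and 559. With a penalty of 0.1 RPKM, 1362 and 2445 genes were higher in colon and 696 and 1054 in small intestine. With a 2-fold threshold these were 1328 and 2338, and 741 and 1048. Of the 7 genes, 2 then passed with colon higher and 0 with small intestine higher in the cDNA fragmented libraries. In the rRNA-depleted libraries 1 passed with colon higher and 2 with small intestine higher. The main rule compared 16440 genes in the cDNA fragmented and 15039 in the rRNA-depleted libraries. Mt2 no longer passed in the rRNA-depleted libraries, which left 0 of the 7 with colon higher, under the median of ratios, by start points and with the deeper library thinned. The cause was not tested. The labels give no replicate numbers, and a fit that pairs the tissues by protocol was not run. Depth limits the rRNA-depleted libraries most, where Mt2 had 15 reads in small intestine.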
